A study of Homo sapiens with 6 samples.

Results

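Hepatic stellate cells (HSCs) are the vitamin A store of the liver, and the 9 genes described here belong to how such cells take up, esterify, oxidize and sense retinoids, together with chemerin, a secreted chemoattractant whose gene, RARRES2, is named for its induction by a synthetic retinoid. The members were RARRES2, RARRES1, RBP4, STRA6, LRAT, ALDH1A3, CRABP2, CYP26B1 and RARG, which are 9 of the 60605 genes with an Ensembl identifier in the count table. They were chosen by name from values measured in this same contrast, RARRES2 being among the genes that differed. The difference between the groups is therefore given for them as a description, with no test. Where RARRES2 is said below to be called, the call restates this choice and is no support for it.

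The cells were LX-2, an immortalized human HSC line. They were cultured for 24 h in the conditioned medium of HCT116 colorectal cancer cells that carried an empty lentiviral vector (Vector-CM, n = 3) or overexpressed FGFBP1 from the same kind of lentivirus (FGFBP1-CM, n = 3). FGFBP1 is a secreted carrier that frees fibroblast growth factors from the extracellular matrix, and the study asked how FGFBP1 made by tumor cells acts on HSCs. The overexpression was in the HCT116 cells, so the FGFBP1 count of the LX-2 libraries (0 to 4) is no check of the labels. The libraries are named replicates of 1 line, and nothing says that they came from separate cultures, so the p-values measure the spread between these libraries, which may be technical.

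The 6 libraries held 14003780 to 18508113 counts assigned to genes, at which 3 counts, the limit that a count of 0 allows, equal 0.158 to 0.217 CPM (counts scaled to library size). FGFBP1-CM replicate 1 stood apart, with a score of 38.1 on the first principal component against 4.73 and 4.96 for the other FGFBP1-CM libraries and -18.3 to -12.9 for Vector-CM. Of the mesenchymal and activation markers on the HSC list, COL1A1, VIM, TIMP1, SPARC and PDGFRB were read in every library. Others on that list were lower, with 214 to 318 counts per library for TAGLN, 36 to 80 for DCN, 16 to 44 for LUM and 12 to 24 for PDGFRA. The markers of the quiescent state and lineage were mixed. LRAT had no count, DES had 0 to 4 and GFAP 5 to 13 counts per library, whereas NGFR had 763 to 1170, RGS5 94 to 158, LHX2 109 to 139, RELN 57 to 84, HAND2 46 to 82 and PPARG 24 to 38. ACTA2, the smooth muscle actin of activated HSCs, had 59 to 84 counts.

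In a resting HSC, retinol arrives bound to the plasma carrier RBP4, can cross the membrane through the receptor STRA6, and is esterified by LRAT into the retinyl esters of the lipid droplets. Retinol dehydrogenases turn retinol into retinal, aldehyde dehydrogenases of the ALDH1A family turn retinal into retinoic acid, CRABP2 carries retinoic acid towards the nucleus, the retinoic acid receptors RARA, RARB and RARG bind DNA with retinoid X receptors, and CYP26 enzymes break retinoic acid down. HSCs that become activated lose their esters. Chemerin is made in quantity by hepatocytes and fat cells, is secreted as a precursor that serine and cysteine proteases trim, and binds the receptors CMKLR1, GPR1 and CCRL2.

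RARRES2 was chosen as a gene that differed in this contrast and was the only member called different between the groups. Its promoter is shown beside those of CRABP2, whose difference was smaller, and of LRAT, which was not read. The sequences are the RefSeq windows of GRCh38.p14 from 250 bases before to 50 bases after the start of the gene, 5′ to 3′ on the gene's own strand, at chr7:150341580-150341879 (minus) for RARRES2, chr1:156705735-156706034 (minus) for CRABP2 and chr4:154743750-154744049 (plus) for LRAT. The start is that of RefSeq. Gene spans given below come from another annotation, which can place the start elsewhere, and the LRAT window lies inside its span. Capitals mark the hexamers of the retinoic acid receptor family, searched on both strands as AGGTCA or GGGTCA or AGTTCA or GGTTCA.

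RARRES2: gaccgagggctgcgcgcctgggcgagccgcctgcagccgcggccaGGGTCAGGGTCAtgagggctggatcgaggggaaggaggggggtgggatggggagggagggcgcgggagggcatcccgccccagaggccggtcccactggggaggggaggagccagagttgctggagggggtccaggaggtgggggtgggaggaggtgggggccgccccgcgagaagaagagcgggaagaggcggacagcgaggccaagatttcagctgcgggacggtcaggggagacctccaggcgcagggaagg
CRABP2: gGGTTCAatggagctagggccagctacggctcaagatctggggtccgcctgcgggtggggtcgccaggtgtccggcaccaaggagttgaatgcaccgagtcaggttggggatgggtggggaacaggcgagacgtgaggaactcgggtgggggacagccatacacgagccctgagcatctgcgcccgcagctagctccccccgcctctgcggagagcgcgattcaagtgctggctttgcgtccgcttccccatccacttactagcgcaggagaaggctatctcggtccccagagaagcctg
LRAT: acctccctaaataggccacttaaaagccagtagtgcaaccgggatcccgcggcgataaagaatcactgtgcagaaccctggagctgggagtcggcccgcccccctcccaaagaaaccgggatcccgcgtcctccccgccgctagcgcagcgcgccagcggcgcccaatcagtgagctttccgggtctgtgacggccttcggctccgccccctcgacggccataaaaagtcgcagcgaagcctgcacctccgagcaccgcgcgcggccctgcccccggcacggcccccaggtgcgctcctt

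The RARRES2 window held GGGTCA at positions -205 to -200 and again at -199 to -194 from the start, a direct repeat with 0 bases between its copies. Such a repeat was in 0.159% of the 35116 windows of all genes, and any of the hexamers was in 38.6%. All 9 members had a window, 15 windows in all, and 3 members had a hexamer in any of them: RARRES2, CRABP2 (GGTTCA at -249 to -244) and STRA6, with GGGTCA or AGGTCA in 2 of its 5 windows. No member had a direct repeat with 1, 2 or 5 bases between the copies, the spacings of classical retinoic acid response elements, which 0.259% of all windows held. The RARRES2 window was 73.0% G and C, against a median of 58.7% over all windows. These matches describe letters in a short window and not binding.

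RARRES2 (chemerin; chromosome 7, 150338317 to 150341674, minus strand, 4 exon blocks) was read 666, 533 and 577 times in Vector-CM and 371, 457 and 401 times in FGFBP1-CM. On the CPM scale these were 37.2, 38.6 and 38.9 against 19.6, 28.7 and 24.5, or 38.2 ± 0.901 against 24.3 ± 4.56 (SD, n = 3 each). Every FGFBP1-CM library lay below every Vector-CM library, and the lowest was FGFBP1-CM replicate 1, the library that stood apart. The level was 1.58-fold higher in Vector-CM, a log2 fold change of FGFBP1-CM over Vector-CM of -0.66 (SE 0.113). Without FGFBP1-CM replicate 1 the log2 fold change was -0.52, and without FGFBP1-CM replicate 2, the nearest to Vector-CM, it was -0.80.

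The FGFBP1-CM libraries differed more among themselves than the Vector-CM libraries did for chemerin, and this was not particular to it. Over all tested genes, the chi-square per degree of freedom was 10.3, 9.5 and 4.81 between pairs of FGFBP1-CM libraries. Between pairs of Vector-CM libraries it was 5.71, 3.12 and 2.81. The coefficient of variation of the RARRES2 level was 18.8% in FGFBP1-CM and 2.36% in Vector-CM. The SD of log2 CPM within groups was 0.193, where the median of 2435 genes of like level was 0.0995. RARG, by the same measure, had an SD of 0.155 against a median of 0.114, and its FGFBP1-CM libraries also spread more (14.8% against 5.78%). ALDH1A3 and CRABP2 had SDs of 0.0754 and 0.0354, below the medians of 0.12 and 0.184 for genes of their levels.

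RARRES1 (TIG1; chromosome 3, 158696892 to 158732696, minus strand, 8 exon blocks), a membrane protein that retinoids induce, was close to the detection limit. Its counts were 4, 2 and 4 in Vector-CM and 9, 7 and 4 in FGFBP1-CM, and its levels of 0.223, 0.145 and 0.270 CPM against 0.475, 0.439 and 0.245 CPM overlapped. The pooled counts of 10 and 20 gave a ratio of FGFBP1-CM over Vector-CM of 1.82, with a 95% exact interval of 0.812 to 4.35 that covers counting error only. The annotation places 331 of its exon bases opposite exons of MFSD1 on the other strand, and whether counting used strand is not stated.

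**Figure D1:**
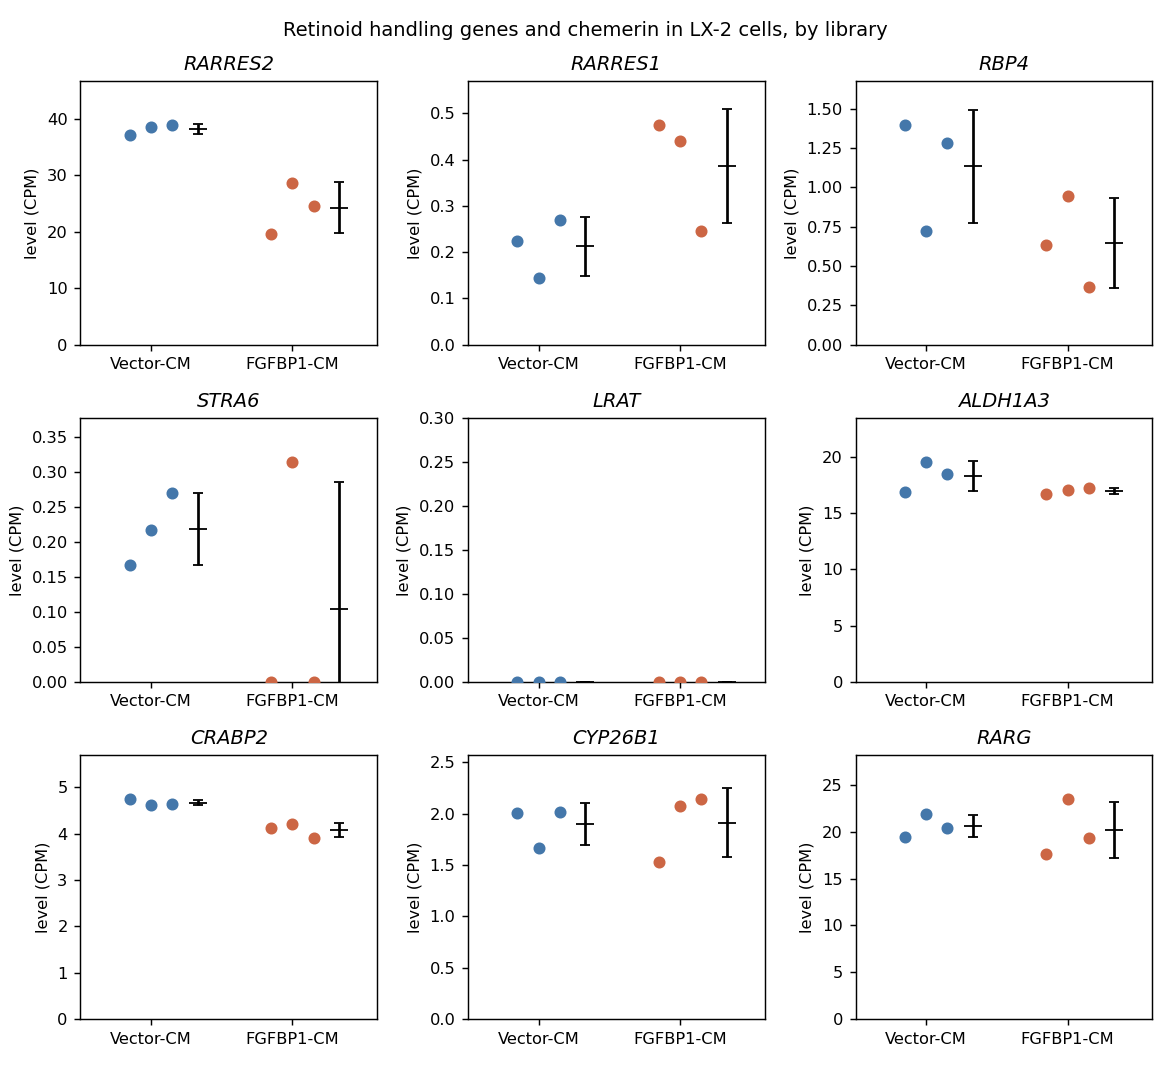
Level of each of the 9 members in CPM (vertical axes, each from 0) in the 3 Vector-CM and the 3 FGFBP1-CM libraries; each point is 1 library and the bar beside it is the mean with the SD. RARRES2 and CRABP2 are the members whose points do not overlap, RARRES2 at 37.2 to 38.9 against 19.6 to 28.7, and LRAT is at 0 in all 6 libraries.

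The proteins that carry retinol to and into the cell were read at low levels. RBP4 (chromosome 10, 93591687 to 93601744, minus strand, 8 exon blocks) had 25, 10 and 19 counts in Vector-CM and 12, 15 and 6 in FGFBP1-CM. The levels were 1.40, 0.723 and 1.28 CPM against 0.633, 0.941 and 0.367 CPM, so Vector-CM replicate 2 lay below FGFBP1-CM replicate 2 and the groups overlapped. The log2 fold change was -0.83 (SE 0.370), the lowest of the tested members and the one with the largest standard error, and it ran from -1.17 to -0.57 with 1 library left out.

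STRA6 (chromosome 15, 74179466 to 74212267, minus strand, 22 exon blocks), the receptor for RBP4, had 3, 3 and 4 counts in Vector-CM and 0, 5 and 0 in FGFBP1-CM. Its pooled counts of 10 and 5 gave a ratio of FGFBP1-CM over Vector-CM of 0.455, with an interval of 0.122 to 1.46, and all 5 FGFBP1-CM counts came from 1 library. CCDC33, on the other strand, shares 540 of its exon bases. LRAT (chromosome 4, 154626945 to 154753118, plus strand, 11 exon blocks), the enzyme that makes retinyl esters, had 0 counts in each library, which allows up to 0.158 to 0.217 CPM. At this depth a difference in STRA6 or LRAT of this order was not detectable.

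The members that make, carry, remove and bind retinoic acid differed between the media by 0.20 or less on the log2 scale, and the groups overlapped for each of them but the carrier CRABP2. ALDH1A3 (chromosome 15, 100877714 to 100916626, plus strand, 15 exon blocks) had 16.9, 19.5 and 18.5 CPM in Vector-CM and 16.7, 17.1 and 17.2 CPM in FGFBP1-CM. The groups overlapped at the lowest Vector-CM library, and the log2 fold change was -0.10 (SE 0.0951). The annotation places 1585 exon bases of ALDH1A3 opposite AC015712.2, on the other strand.

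CRABP2 (chromosome 1, 156699606 to 156705816, minus strand, 5 exon blocks) had 4.75, 4.63 and 4.65 CPM in Vector-CM and 4.11, 4.21 and 3.91 CPM in FGFBP1-CM, from 64 to 85 counts a library. All FGFBP1-CM libraries lay below the Vector-CM libraries, by a log2 fold change of -0.20 (SE 0.150). The replicates of each medium were close to each other (4.67 ± 0.0619 against 4.08 ± 0.149 CPM, SD, n = 3 each), while the standard error of the fit was wide beside the difference.

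CYP26B1 (chromosome 2, 72129238 to 72148038, minus strand, 7 exon blocks), which hydroxylates retinoic acid for removal, had 2.01, 1.66 and 2.02 CPM in Vector-CM and 1.53, 2.07 and 2.14 CPM in FGFBP1-CM. The groups overlapped at both ends, and the log2 fold change was -0.0037 (SE 0.229). RARG (chromosome 12, 53210567 to 53232980, minus strand, 12 exon blocks), the nuclear receptor, had 19.5, 21.8 and 20.4 CPM against 17.7, 23.5 and 19.3 CPM. Its FGFBP1-CM libraries enclosed the Vector-CM libraries, with a log2 fold change of -0.03 (SE 0.111).

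Of the 9 members, 6 passed the filter on low counts: RARRES2, RARG, ALDH1A3, CRABP2, CYP26B1 and RBP4. RARRES2 alone was among the 11 genes called lower in FGFBP1-CM (edgeR quasi-likelihood test with Benjamini-Hochberg adjusted p under 0.05), where 0.0658% of the 16707 tested genes were called lower and 0.12% in either direction. Its log2 fold change was the 8th lowest of those 11. It was called in 9 of 16 alternatives and lost in the others, among them the fits without any 1 of the Vector-CM replicates, where its log2 fold change was -0.68, -0.65 and -0.65. RARRES2 and CRABP2 were lower in every FGFBP1-CM library, which 13.2% of all tested genes were, and 0 members were higher in every FGFBP1-CM library, which 12.8% were. The 6 log2 fold changes were negative, with a median of -0.15 beside 0.00319 over all tested genes, but RARG and CYP26B1 turned to 0.00 and 0.03 when only library size was used for scaling and to 0.03 and 0.03 with a correction for GC content and length. Because the members were chosen with this contrast known, nothing is read from these counts.

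Per length, chemerin was the most abundant transcript of the 9. On the FPKM scale of the deposited table, mean levels over the 6 libraries were 16.3 ± 4.06 for RARRES2 (SD, n = 6), 4.03 ± 0.272 for CRABP2, 3.96 ± 0.369 for RARG and 3.29 ± 0.175 for ALDH1A3. RBP4 followed at 0.607 ± 0.264, CYP26B1 at 0.393 ± 0.0493, RARRES1 at 0.148 ± 0.0657 and STRA6 at 0.0208 ± 0.0173, and LRAT was listed at 0. The range of RARRES2, 10.5 to 19.9, lay above that of CRABP2 in both media. CRABP2 and RARG could not be ordered, CRABP2 being higher in 4 of 6 libraries. The ranges of RARG and ALDH1A3 overlapped, although RARG was higher in 6 of 6, and so did those of RBP4 and CYP26B1, with RBP4 higher in 5 of 6. Among the tested genes RARRES2 was at the 82.8 percentile of FPKM, CRABP2, RARG and ALDH1A3 were between the 46.3 and 50.8 percentiles, and RBP4 and CYP26B1 were at 15.7 and 10.3.

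The levels of the other genes of each role place the members within the pathway. Among enzymes that oxidize retinal or cleave carotenoids, ALDH1A3 at 3.29 FPKM stood above the carotenoid oxygenase BCO2 at 0.306, ALDH1A1 at 0.121, ALDH1A2 at 0.0634 and ALDH8A1 at 0.242. Among enzymes that clear retinoic acid, CYP26B1 was the CYP26 form with reads in every library, since CYP26A1 had 0 counts and CYP26C1 had 0 or 1. Other cytochromes of the pathway list, CYP27C1, CYP2S1 and CYP1B1, were at 3.09, 2.90 and 0.133 FPKM. Whether they clear retinoic acid in these cells was not tested.

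The retinoic acid receptors were read at similar levels, RARA at 4.97 ± 0.591, RARB at 4.33 ± 0.222 and RARG at 3.96 ± 0.369 FPKM (SD, n = 6), with overlapping ranges. Their partners RXRB and RXRA were at 13.2 and 2.10 FPKM, and PPARD, another receptor reported to bind retinoic acid, was at 18.3. Of the carriers, CRABP2 at 4.03 FPKM had no counterpart in CRABP1, which had 1 count in all 6 libraries, while the cellular retinol carriers RBP7 and RBP5 were at 2.74 and 0.519. SCARB1, the scavenger receptor that takes up carotenoids and lipoprotein lipid, was at 5.35.

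LRAT and the isomerohydrolase RPE65 had no counts, and the lipases and droplet proteins that other fats also use were present: PNPLA2 at 8.75, its coactivator ABHD5 at 4.88 and the droplet coat protein PLIN2 at 4.81 FPKM. Of the enzymes that interconvert retinol and retinal, RDH11 was at 48.1, RDH14 at 8.02 and RDH10 at 3.25 FPKM. The receptor coregulators NRIP1 and NCOA3 were at 26.0 and 19.1.

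**Figure D2:**
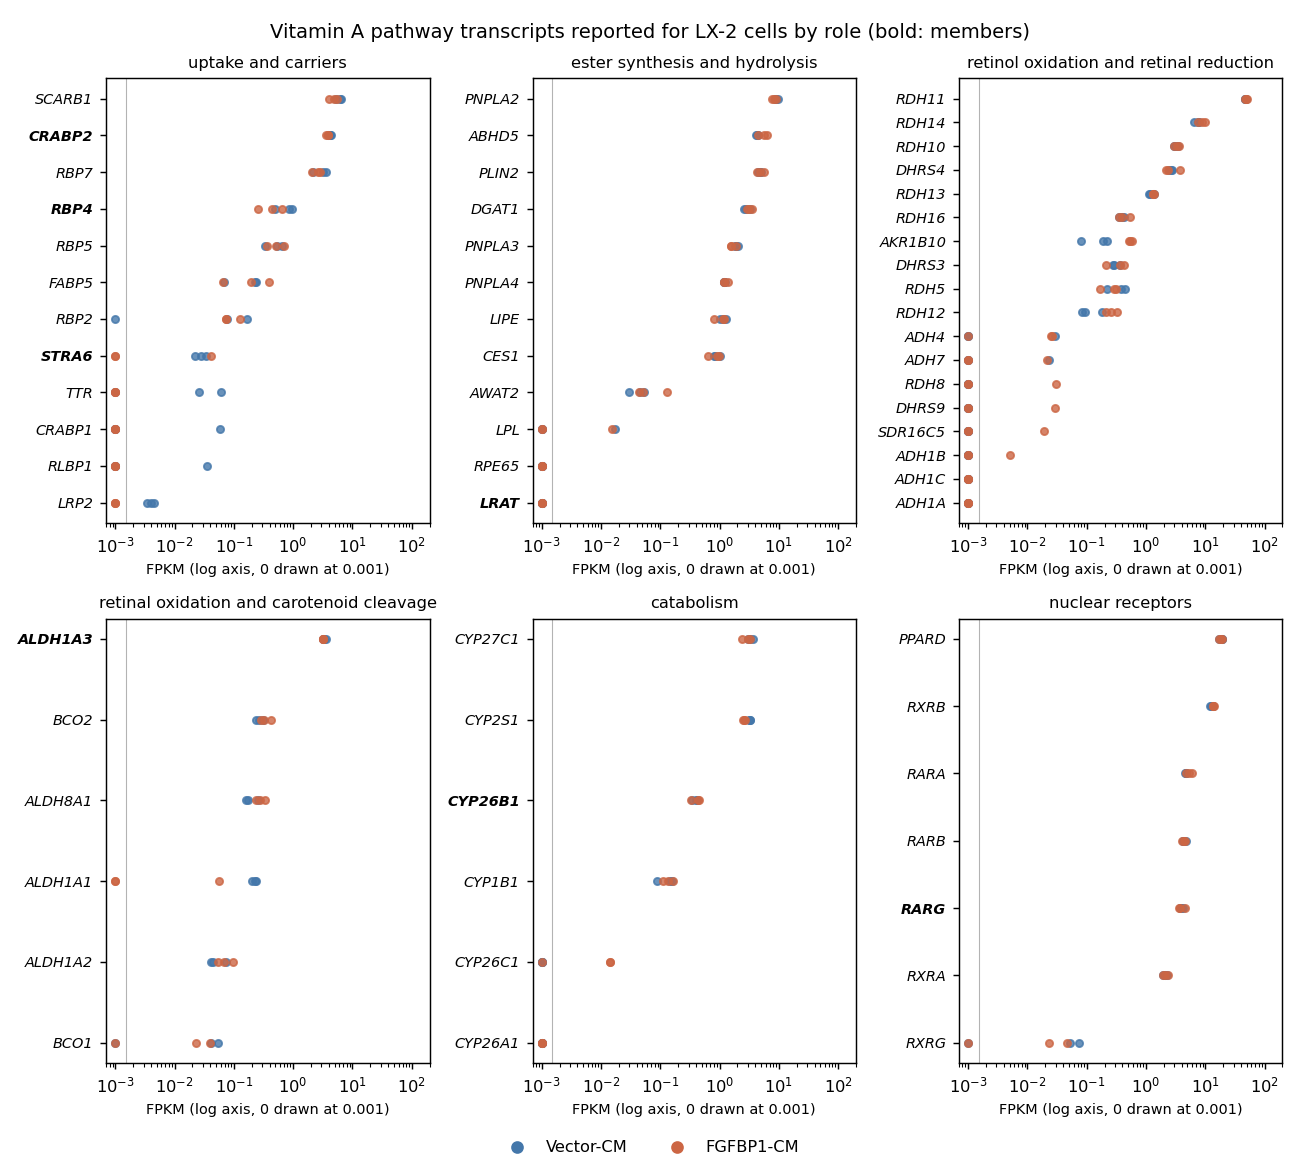
Level of vitamin A pathway transcripts in FPKM (horizontal log axes, with 0 drawn at 0.001 left of the grey line), grouped by role; each point is 1 of the 3 Vector-CM or 3 FGFBP1-CM libraries and the members are in bold. ALDH1A3 at a mean of 3.29 FPKM is the highest retinal oxidase, CYP26B1 at 0.393 the highest CYP26 enzyme, and LRAT is listed at 0.

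Beside the members, 63 further genes of the retinoid pathway were in the table and 38 could be tested, with 24 higher and 14 lower in FGFBP1-CM and a median log2 fold change of 0.04 beside 0.00319 over all tested genes. None passed an adjusted p of 0.05 in edgeR. At an unadjusted p under 0.05 there were 6 higher and 2 lower, where 11.1% of all tested genes were higher and 10.7% lower at that level, and DESeq2 called 1, NRIP1, as higher, where it called 1.93% of them higher and 1.57% lower. The lowest adjusted p was that of AKR1B10, an aldo-keto reductase that reduces retinal among many carbonyls, with 6, 2 and 6 counts in Vector-CM and 19, 15 and 15 in FGFBP1-CM. Its groups did not overlap, and the log2 fold change was 1.65 (SE 0.38, edgeR adjusted p = 0.064). AKR1B10 passed the filter on low counts only through FGFBP1-CM, where it was higher, so its place at the top is no support for a difference.

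Of the other tested genes of the pathway, NRIP1, a corepressor of nuclear receptors that retinoic acid induces, differed by 0.31 on the log2 scale (SE 0.0882, edgeR adjusted p = 0.0912), and ABHD5 one of 0.34 (SE 0.103, adjusted p = 0.102). SCARB1 had one of -0.33 (SE 0.103, adjusted p = 0.105) and CYP2S1 one of -0.36 (SE 0.121, adjusted p = 0.119). At the ends of the list were ALDH8A1 at 0.50 (SE 0.333) and RDH5 at -0.49 (SE 0.343), both from few counts. RARA and RARB, the sister receptors of RARG, had 0.18 (SE 0.0969, adjusted p = 0.308) and -0.05 (SE 0.101, adjusted p = 0.821).

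ALDH1A1, a sister enzyme of ALDH1A3, had 12, 8 and 10 counts in Vector-CM and 3, 0 and 0 in FGFBP1-CM and did not pass the filter on low counts. Its groups did not overlap, at 0.641 ± 0.0538 against 0.0528 ± 0.0914 CPM. The pooled counts gave a ratio of FGFBP1-CM over Vector-CM of 0.0909, with a 95% exact interval of 0.0178 to 0.292 for counting error only. With no filter it had an edgeR adjusted p of 0.000168 and a log2 fold change of -3.29, in a fit that called 1382 genes against 20 in the main fit. ALDH1A1 was also called without FGFBP1-CM replicate 1, 2 or 3, so in 4 of 16 alternatives. In the fits without an FGFBP1-CM library it passed the filter only through Vector-CM, where it was higher. This tally is therefore no support for its difference. The alternatives that kept the filter on all 6 libraries did not test it.

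Genes known to answer to retinoic acid were counted as a group beside the members, since RARRES1 and RARRES2 belong to them. Of 23 in the table, 18 could be tested, with 6 higher and 12 lower in FGFBP1-CM and a median log2 fold change of -0.07. None passed an adjusted p of 0.05 in edgeR. There were 2 higher and 6 lower at an unadjusted p under 0.05, beside 11.1% and 10.7% of all tested genes, and DESeq2 called 1 higher and 3 lower, beside 1.93% and 1.57%. The direct targets CYP26A1 and STRA8 had 0 counts, and RARB and DHRS3, also direct targets, had log2 fold changes of -0.05 (SE 0.101) and 0.07 (SE 0.305).

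The most abundant of these genes were RAI14, HOXB4 and BHLHE40, at 88.9, 42.1 and 34.0 FPKM, and BHLHE40 differed by -0.33 on the log2 scale (SE 0.0795, edgeR adjusted p = 0.0666). The lowest adjusted p of the list was that of TNIP1, a brake on NF-kB signalling, at -0.32 (SE 0.0761, adjusted p = 0.0658), and TGM2, a transglutaminase, was at -0.32 (SE 0.0911, adjusted p = 0.0896). BHLHE40, TNIP1 and TGM2 were the 3 genes that DESeq2 called lower. The lowest values were those of RET at -0.91 (SE 0.377, adjusted p = 0.185), a receptor tyrosine kinase, and MEIS1 at -0.43 (SE 0.14, adjusted p = 0.113), a homeobox factor. The highest was that of NRIP1, given above. The list thus held values in both directions, and 6 of its 18 tested genes were lower in every FGFBP1-CM library and 3 higher, where 13.2% and 12.8% of all tested genes were.

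None of the chemerin receptors, proteases or protease inhibitors passed the test, and the estimates for the tested receptors were above 0 and most of those for the proteases and inhibitors below 0. GPR1 was the most abundant receptor, at 2.49 FPKM, and its log2 fold change was 0.31 (SE 0.179, edgeR adjusted p = 0.34). CCRL2, which binds chemerin without signalling, had 14, 7 and 13 counts in Vector-CM and 34, 16 and 24 in FGFBP1-CM, groups that did not overlap, and its log2 fold change was 0.97 (SE 0.319, adjusted p = 0.118). CMKLR1, the signalling receptor, was too low to test, with 6, 3 and 4 counts against 16, 9 and 4.

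Of the proteases that can cut chemerin, CTSL, PLAT and PLAU were the most abundant, at 165, 39.1 and 15.96 FPKM. PLAT, the tissue plasminogen activator, differed by -0.32 on the log2 scale (SE 0.0955, adjusted p = 0.0969), CTSL one of -0.20 (SE 0.0718, adjusted p = 0.148) and PLAU one of -0.13 (SE 0.0884). Among inhibitors, SERPINE2 was at 20.3 FPKM with -0.21 (SE 0.084) and LXN, a carboxypeptidase inhibitor, was at 6.19 FPKM with -0.29 (SE 0.112, adjusted p = 0.159). Of 20 genes of the axis 11 could be tested, 3 higher and 8 lower with a median log2 fold change of -0.17, and none passed an adjusted p of 0.05 in edgeR. There were 1 higher and 5 lower at an unadjusted p under 0.05, beside 11.1% and 10.7% of all tested genes, and DESeq2 called 2, both lower, beside 1.57%. Of the 11, 1 was higher and 4 were lower in every FGFBP1-CM library, beside 12.8% and 13.2%.

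**Figure D3:**
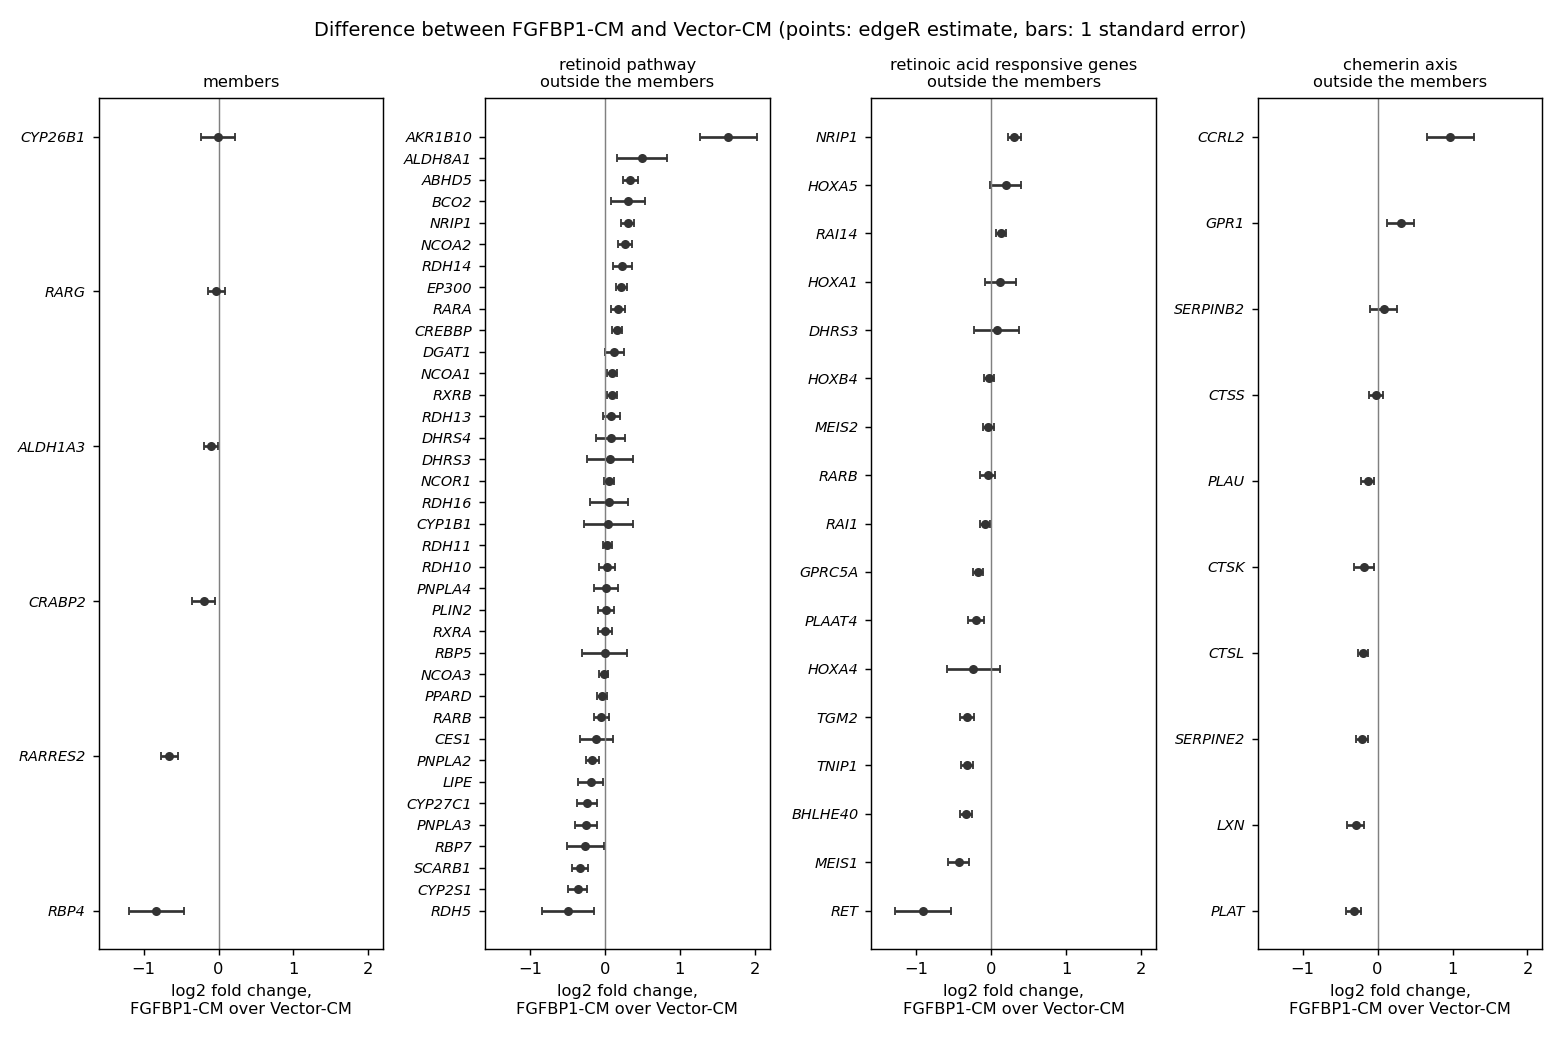
Log2 fold change of FGFBP1-CM over Vector-CM (horizontal axes) for the 6 tested members and for tested genes of the retinoid pathway, of the retinoic acid responsive genes and of the chemerin axis, leaving out those not reported by name; points are edgeR estimates from 3 libraries a group and bars are 1 standard error. RARRES2 lies at -0.66, RBP4 at -0.83 with a wide bar, and AKR1B10 at 1.65 and CCRL2 at 0.97 are the highest of their lists.

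RARRES2 and RBP4 are also products of hepatocytes, and some hepatocyte transcripts differed between the media. The 20 hepatocyte markers summed to 85.0 to 88.9 CPM in Vector-CM and 59.9 to 73.2 CPM in FGFBP1-CM, and without the most abundant of them, SERPINA1 and CPS1, to 11.3 to 14.5 against 2.75 to 3.52 CPM. Of the 7 that could be tested 6 were lower, beside 8235 of all 16707 tested genes. In edgeR 3 were called lower, beside 0.0658% of all tested genes, and DESeq2 called 1 lower, beside 1.57%. Any gene that DESeq2 left without an adjusted p counted as not called, here and in its other tallies and shares. The 3 that edgeR called were APOB, ALB and FGA, with log2 fold changes of -3.59 (SE 0.323, edgeR adjusted p = 0.00034), -2.44 (SE 0.307, adjusted p = 0.00869) and -3.82 (SE 0.569, adjusted p = 0.0249). TF and SERPINA1 were lower without a call, at -1.86 (SE 0.34) and -0.53 (SE 0.129). CPS1, the most abundant marker of the list, was at -0.04 (SE 0.0733, edgeR adjusted p = 0.771), and HPX was higher at 0.35 (SE 0.36). The counts of the 3 called genes were low, at 41 to 59 per library in Vector-CM against 3 to 7 in FGFBP1-CM for APOB, 45 to 65 against 7 to 16 for ALB, and 13 to 16 against 0 to 2 for FGA. These 3 passed the filter on low counts only through Vector-CM, where they were higher. The tally of lower genes and the 3 calls were thus partly set by the filter, unlike the shares over all tested genes. The defining markers APOA1, APOA2, TTR and AHSG had 0 to 3 counts in each library. The part of these transcripts in the RARRES2 and RBP4 levels was not tested, and in bulk RNA fewer cells of a type and less RNA per cell cannot be told apart.

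The HSC markers summed to 3667 to 3932 CPM in Vector-CM and 2841 to 3393 CPM in FGFBP1-CM. Most of this sum was VIM, with means of 2591 and 2160 CPM, followed by SPARC at 518 and 366 CPM and TIMP1 at 335 and 258 CPM. Of 20 tested markers 16 were lower, beside 8235 of all 16707 tested genes. In edgeR 1, TIMP1, was called lower (log2 fold change -0.38, SE 0.0623, adjusted p = 0.0465), beside 0.0658% of all tested genes. DESeq2 called 4 lower, beside 1.57%. The part of the lower HSC sum in the RARRES2 level was likewise not tested. Markers of the colorectal epithelium, from which the medium came, overlapped between groups (229 to 252 CPM against 218 to 237 CPM), most of it KRT8 and KRT18, and CEACAM5, CEACAM6 and TFF3 had no counts. Macrophage markers summed to 5.35 to 6.36 against 5.12 to 7.85 CPM and endothelial markers to 14.8 to 17.2 against 13.8 to 16.8 CPM. None of the tested markers of these 3 lists passed the threshold in edgeR or in DESeq2, and none had an unadjusted p under 0.05.

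**Figure D4:**
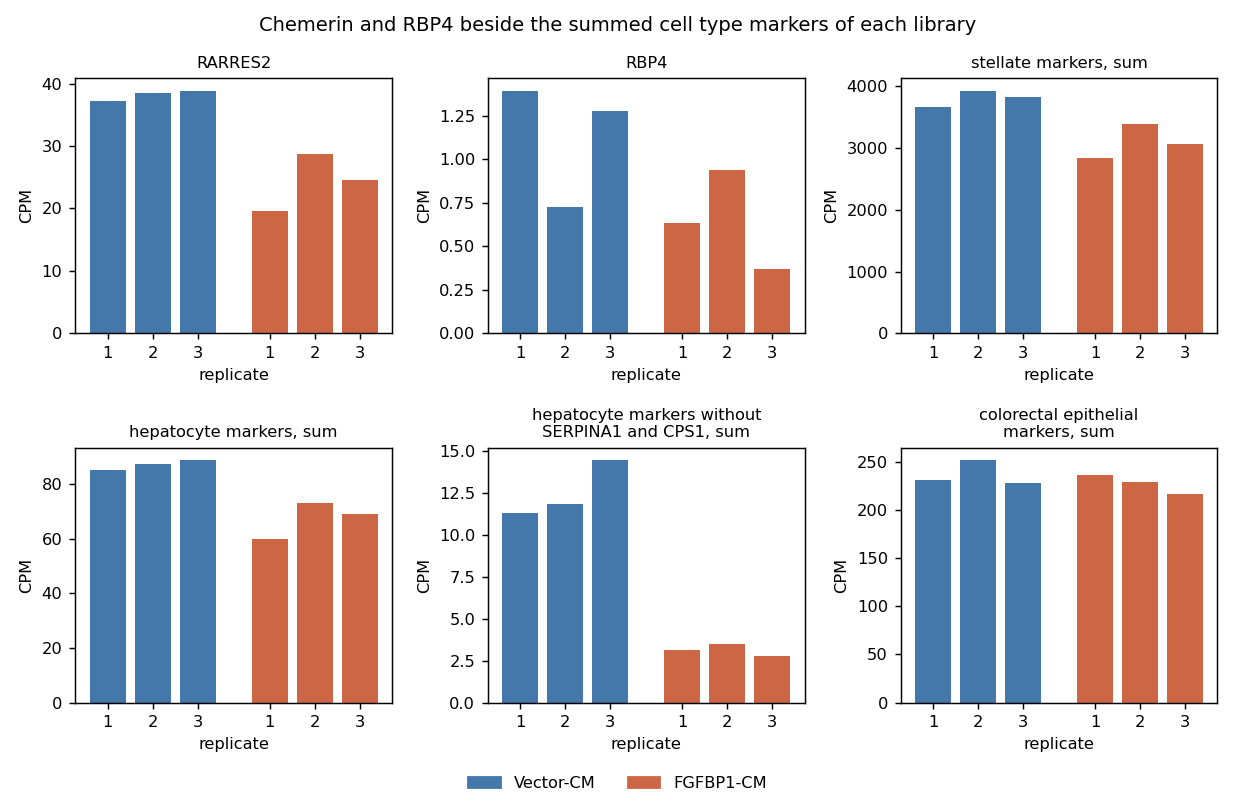
Level in CPM (vertical axes from 0) of RARRES2 and RBP4 and the summed level of 3 cell type marker lists and of the hepatocyte list without SERPINA1 and CPS1, in each of the 6 libraries; bars are single libraries. RARRES2, the HSC sum and both hepatocyte sums are lower in every FGFBP1-CM library, whereas RBP4 and the colorectal sum overlap.

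The deposited annotation gave 7 of the 9 members a Gene Ontology term that names retinol, retinoids, retinoic acid or vitamin A, from 1 term for RARRES2 to 10 for CYP26B1, and gave RARRES1 and LRAT none. It placed 2 members, ALDH1A3 and CYP26B1, in the KEGG pathway of retinol metabolism.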

How the data were processed

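The study sequenced RNA in 6 LX-2 libraries. The authors deposited 1 table of 60780 rows (60605 Ensembl genes and 175 rows with the authors' own identifiers) with raw counts and FPKM values per library. The submitters' processing notes name HISAT2 2.0.5, featureCounts 1.5.0-p3, DESeq2 1.16.1, edgeR and the build hg18. The deposited counts were used as they are. The FPKM values, scaled by the authors to gene length and depth, served for levels between genes. The annotation release and the strand setting are not given in the sources used here, and the labels name depletion of ribosomal RNA, while the methods also name poly(A) enrichment. Gene coordinates are those of the same Ensembl identifier in GENCODE 29 (GRCh38), which held 58337 of the identifiers (96.3%). They may not be those counted on.

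All rows entered 1 fit: edgeR 4.0.16 in R 4.3.3, filterByExpr with a minimum count of 10, TMM scaling, quasi-likelihood F-test, Benjamini-Hochberg adjustment over 16707 genes, threshold 0.05. The SE is the log2 fold change divided by the square root of F. CPM uses TMM-scaled totals. Intervals (95%) on pooled counts are exact and cover counting error only. The script was tested on simulated data. Alternatives used DESeq2 1.42.0, limma 3.58.1 on log2(FPKM + 1) and log2(FPKM + 0.1), other scalings and filters, and each library left out. A replicate block was another. A loess correction for GC content and length (span 0.3) was added after seeing the data.

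The members and lists were chosen with earlier results of these data known. Named were all members, of each list every gene past the threshold, the 3 highest FPKM per role, and the 2 highest and 2 lowest log2 fold changes. RARB, RXRA, ALDH1A2, CYP26A1, CYP26C1, CRABP1, RPE65, STRA8, DHRS3, TNIP1, TGM2 and the cell type markers named fall outside this rule and were chosen after their values were seen. The 5 genes most like RARRES2 were named among genes with a mean of at least 10 CPM. Some genes of these lists are not reported here by name.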

Additional observations from a re-analysis of the deposited data

How the results depend on the processing

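The log2 fold change of RARRES2 was negative under all 16 alternatives, from -0.80 to -0.52. Over 16401 tested genes the log2 fold change fell with GC content (Spearman rho -0.206), and rho was -0.0108 after the GC content and length correction. RARRES2, whose longest transcript was 65.6% G and C, was at -0.59 with that correction. The part of the GC trend in its difference was not tested further. RARRES2, which was chosen from this contrast, stayed among the called genes in 9 of them, a tally that is no support for its difference. It was not called with library size only, with a mean of at least 1 CPM, with limma at either pseudocount, or without any 1 of the 3 Vector-CM replicates. Of 95 alternative values of the members, 90 moved by less than the spread between replicates and 5 by more: RBP4 at -0.29 with limma on log2(FPKM + 1), and CRABP2 at -0.13 and -0.16 with limma and at -0.16 with the GC content and length correction, alone or with the replicate block.

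Counts of calls moved far more, and the cause was not tested. All tested genes gave 20 calls, against 38 with RLE scaling, 1382 with no filter, 11 with a mean of at least 1 CPM, 585 with DESeq2, 1 and 5 with limma at pseudocounts of 1 and 0.1, 154 with the GC content and length correction, and 4 to 883 with 1 library left out: 6, 4 and 4 without Vector-CM replicates 1, 2 and 3, and 72, 883 and 402 without FGFBP1-CM replicates 1, 2 and 3. The retinoid pathway gave 0, but 5 with no filter, 1 with DESeq2 and 0 to 2 with 1 library left out. The retinoic acid responsive genes gave 0, but 6 with no filter, 4 with DESeq2, 1 with the GC content and length correction and 0 to 4 with 1 library left out. The chemerin axis gave 0, but 2 with no filter, 2 with DESeq2 and 0 to 2 with 1 library left out. The nonzero counts with 1 library left out came without an FGFBP1-CM library.

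No pairing of the libraries by replicate number was seen: deviations of same-numbered libraries correlated at -0.094, -0.0265 and 0.111. With 3 libraries a group these values cannot exclude a pairing. With the replicate block there were 90 calls over all genes, 0 in the retinoid pathway, 0 among the retinoic acid responsive genes and 1 in the chemerin axis (PLAT), and with the block and the GC content and length correction there were 417, 0, 2 and 3. The RARRES2 log2 fold change was -0.67 with the block. Members under about 10 counts a library (RARRES1, STRA6 and LRAT) were limited by depth.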

Other observations

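The 5 genes whose level over the 6 libraries was most like that of RARRES2, by Pearson's r of log2 CPM among 9756 genes with a mean of at least 10 CPM, were CDCA3 (0.9995), TK1 (0.9985), ZNF496 (0.9981), FBLN2 (0.9957) and TCF3 (0.9947). The libraries share medium, depth and composition, so these values are a description and carry no test. All 5 had lower means in FGFBP1-CM, with log2 fold changes of -0.16, -0.35, -0.25, -0.48 and -0.21, each smaller in size than the -0.66 of RARRES2. CDCA3 and TK1 belong to the cell cycle and to DNA synthesis, FBLN2 to the extracellular matrix, and ZNF496 and TCF3 to transcription. The means of Vector-CM and FGFBP1-CM were 221 and 159 CPM for FBLN2 and 164 and 129 CPM for TK1.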
